A study of Mus musculus with 2 samples.

Results

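The 10 genes described here encode CTCF, the zinc-finger protein ZFP143 and components or regulators of cohesin: Ctcf, Zfp143, Mau2, Nipbl, Rad21, Smc3, Stag1, Pds5a, Pds5b and Wapl. They were chosen by name from 21883 protein-coding genes. Their contacts were taken as all enriched pixels with an anchor bin within 10 kb of either annotated end of the gene. An enriched pixel is a pair of 5 kb bins on 1 chromosome that touched more often than the surrounding pairs in Hi-C, an assay that joins and sequences DNA ends lying close together in fixed nuclei. The cells were hair matrix keratinocytes, the proliferating epithelium of the hair bulb, sorted at postnatal day 4.5. Wild-type mice (WT) gave 1 library, and Tet2/Tet3 double-knockout mice carrying Krt14-Cre (DKO) gave the other. The Cre recombinase is driven by the Krt14 promoter, which is active in basal keratinocytes, and Tet2 and Tet3 encode enzymes that oxidise methylated cytosine. The labels do not say how many animals went into a library.

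Cohesin is a ring of SMC1, SMC3, RAD21 and a STAG subunit. NIPBL and MAU2 load it on chromatin, where it pulls DNA into growing loops that tend to stop at bound CTCF. WAPL, acting with PDS5A or PDS5B, releases the ring. ZFP143 binds many promoters and has been linked to promoter contacts. The question addressed is which called contacts touch the genes of this machinery with and without Tet2 and Tet3, not how much of the proteins is present, since contacts measure no transcript or protein. For the same reason neither the cell type nor the deletion could be checked against marker genes.

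Within 10 kb of the 10 genes there were 5 contacts at 4 genes, 4 contacts in the DKO list and 1 in the WT list. Ctcf, Zfp143 and Pds5b had contacts in DKO (3 of 10 genes, 30%, 6.67 to 65.2), where 20.1% of all protein-coding genes had one. Mau2 had one in WT (1 of 10 genes, 10.0%, 0.253 to 44.5), against 21.2% of all genes. None of the 10 genes had contacts in both lists (0 to 30.8%), against 12.9% of all genes. Contacts in DKO alone were found at 7.14% of all genes and in WT alone at 8.23%, against 3 and 1 of the 10 genes. The intervals for shares treat the 10 named genes as random draws, which they were not. No difference from the shares of all genes was tested. At least 1 list had a contact at 4 of the 10 genes and at 28.3% of all genes.

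None of the 5 contacts had a counterpart in the other list within 2 bins at both anchors. Of all pixels, 67.6% in WT and 70.5% in DKO did. Those shares include groups of adjoining pixels, and no share was computed for pixels standing alone, as 4 of the 5 did. The remaining 6 genes had no called contact within 10 kb in either list. The 4 DKO contacts lay at the start of transcription of their gene or 1689 bases from it, and the WT contact lay at the 3′ end of Mau2. The WT list held 5811 pixels and the DKO list 4872, with a median of 18 observed contacts per pixel in both. At the 1940 pixels present in both lists, the median ratio of DKO to WT expected counts was 0.973 (quartiles 0.904 and 1.05). This ratio covers only pixels called in both lists and is not a measure of sequencing depth. With 1 library per genotype, genotype and library cannot be told apart and no difference was tested. All intervals in parentheses are exact 95% intervals, and those of counts and enrichments cover counting error only. A pixel that is not listed has no recorded value, so a gene without a contact has no called contact, which does not show that the contact is absent.

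The promoters shown here are those of the 3 genes with DKO contacts and that of Tmem41b, the partner of the strongest Zfp143 contact. Each window lies whole inside the 5 kb anchor bin of its contact, except that the shorter Zfp143 contact uses the adjoining bin. They run from 250 bases before to 50 bases after a transcript start, 5′ to 3′ on the strand of the gene, in RefSeq's GRCm38.p6. The positions are chr8:105636288-105636587 (plus strand) for Ctcf, chr7:110061452-110061751 (plus) for Zfp143, chr5:150673577-150673876 (plus) for Pds5b and chr7:109986181-109986480 (minus) for Tmem41b. Capitals mark AGGNGGC on either strand, the core letters of the CTCF motif.
Ctcf: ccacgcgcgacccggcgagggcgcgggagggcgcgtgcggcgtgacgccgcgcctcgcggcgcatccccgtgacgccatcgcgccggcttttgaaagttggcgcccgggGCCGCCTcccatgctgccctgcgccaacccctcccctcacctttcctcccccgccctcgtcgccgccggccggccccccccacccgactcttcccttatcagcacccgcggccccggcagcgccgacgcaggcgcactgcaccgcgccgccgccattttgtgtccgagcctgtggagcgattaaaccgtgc
Zfp143: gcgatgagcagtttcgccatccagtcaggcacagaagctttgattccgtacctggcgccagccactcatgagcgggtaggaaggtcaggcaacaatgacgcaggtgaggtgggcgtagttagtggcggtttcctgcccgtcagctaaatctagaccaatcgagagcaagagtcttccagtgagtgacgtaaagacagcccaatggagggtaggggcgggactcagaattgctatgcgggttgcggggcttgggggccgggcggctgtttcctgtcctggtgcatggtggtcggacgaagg
Pds5b: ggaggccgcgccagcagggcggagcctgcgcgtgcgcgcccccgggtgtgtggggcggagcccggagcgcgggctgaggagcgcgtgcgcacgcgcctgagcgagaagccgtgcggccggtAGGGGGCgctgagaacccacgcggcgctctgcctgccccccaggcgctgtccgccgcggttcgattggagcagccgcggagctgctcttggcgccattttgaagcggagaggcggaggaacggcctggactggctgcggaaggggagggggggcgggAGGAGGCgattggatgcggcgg
Tmem41b: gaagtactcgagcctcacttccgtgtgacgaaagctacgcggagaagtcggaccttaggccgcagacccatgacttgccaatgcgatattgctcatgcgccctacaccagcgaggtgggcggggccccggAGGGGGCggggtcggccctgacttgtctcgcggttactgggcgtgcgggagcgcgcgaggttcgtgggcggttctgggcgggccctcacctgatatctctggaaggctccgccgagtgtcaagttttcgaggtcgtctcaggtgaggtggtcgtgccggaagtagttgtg
The Ctcf and Tmem41b windows held 1 match each, the Pds5b window 2 and the Zfp143 window none. Of 32851 promoter windows of this length, 29.4% held at least 1 match, so a match is common, and it shows no binding by itself. CpG dinucleotides, the substrate on which the TET enzymes act once methylated, numbered 47 in the Ctcf window, 41 in Pds5b, 30 in Tmem41b and 18 in Zfp143. The median over all windows was 7 (quartiles 3 and 20), and 98.6% of windows held fewer than that of Ctcf. High counts were not particular to genes with DKO contacts. The windows of Pds5a, Stag1, Wapl and Smc3, without a contact within 10 kb, held 55, 43, 35 and 32. Those of Mau2 held 1 and 21. Promoter windows were found for 8 of the 10 genes, all but Nipbl and Rad21. The longer motif that ZFP143 binds, searched on both strands with any base at the eighth letter, was present in the window of 1 member, Wapl, as ACTACAACTCCC beginning 162 bases before the transcript start. That motif occurred in 0.95% of all windows.

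Ctcf (chromosome 8, 105636474 to 105682922) encodes the factor that blocks loop growth. In the DKO list the bin holding its start of transcription (105635001 to 105640000) met a bin 65 kb downstream (105700001 to 105705000). The partner lies past the 3′ end of Ctcf and holds the starts of Acd, a telomere protein of the shelterin complex, and of Pard6a, a cell polarity protein. It also holds the 3′ end of Enkd1. An end of Carmil2 lay 1806 bases from the partner bin, and the start of 4933405L10Rik 3289 bases from it. The pixel had 19 observed contacts (11.4 to 29.7) where 5.53 were expected from the donut around it, an enrichment of 3.44 (2.07 to 5.37). The other 3 neighbourhoods gave enrichments of 3.35 to 3.85. The authors' deposited false discovery rates (FDR) ran from 0.00200 to 0.0169, so the pixel passed their limit of 0.1 but not 0.01 in every neighbourhood. By donut enrichment it ranked low, with 11.4% of DKO pixels less enriched. By count and FDR it lay near the middle, as 51.7% of DKO pixels had fewer contacts and 50.3% a larger highest FDR. In the WT list the nearest anchor to either end of Ctcf was 27.1 kb away. That WT pixel ran from 105710001, 5 kb past the partner bin of the DKO contact, to 105930001, over 220 kb and away from Ctcf. It had 14 contacts, 5.14 times expected (2.81 to 8.62).

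Zfp143 (chromosome 7, 110061689 to 110095396) encodes the promoter-binding zinc-finger protein. It was the only one of the 10 genes with more than 1 contact within 10 kb, and both ran upstream in the DKO list. In the longer, the bin of the start of transcription (110060001 to 110065000) met the bin of the start of Tmem41b (109985001 to 109990000), 75 kb away. Tmem41b encodes a lipid scramblase of the endoplasmic reticulum. The contact joined the start bins of both genes across Ipo7, which lies between them. It had 20 contacts (12.2 to 30.9), 5.01 times the donut expectation (3.06 to 7.74), and FDRs of 4.37e-05 to 0.00697. It was the only contact of the 5 with an FDR under 0.01 in all 4 neighbourhoods, as 41.3% of all DKO pixels and 43.0% of WT pixels had. By that limit 9.51% of all genes had a contact in DKO, 10.8% in WT, 3.54% in DKO alone and 4.87% in WT alone, against 1, 0, 1 and 0 of the 10 genes.

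The shorter Zfp143 contact spanned 40 kb, from 110055001 to 110060000 back to 110015001 to 110020000. Its bins held the 3′ end and the start of Ipo7, which encodes the nuclear import receptor importin 7. The start of Zfp143 lay 1689 bases outside the first of them, so the pixel joined the ends of Ipo7 rather than touching Zfp143 itself. It had 23 contacts (14.6 to 34.5) at 3.16 times expected (2.01 to 4.75), the lowest donut enrichment of the 5, and 2.38 (1.51 to 3.57) over the vertical neighbourhood. Its FDRs ran from 0.00255 to 0.0404.

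In the WT list Zfp143 was enclosed by a contact over 90 kb, from 110035001 to 110040000, inside Ipo7, to 110125001 to 110130000. An end of Wee1, which encodes a kinase that holds back mitosis, lay 2942 bases from the far bin. This pixel had 14 contacts, 4.84 times expected (2.65 to 8.12), and its near anchor lay 21.7 kb from Zfp143. It was not matched in DKO, where the nearest pixel was offset by 65 kb. The 14 contacts of the WT pixel were the lowest count listed for its classes in both lists, and its largest FDR was 0.0490.

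Mau2 (chromosome 8, 70014527 to 70042734, minus strand) encodes the partner of NIPBL in cohesin loading. The bin of its 3′ end (70010001 to 70015000) met a bin 95 kb further downstream (69915001 to 69920000) in the WT list. That partner lies inside Gatad2a, a subunit gene of the NuRD chromatin remodelling complex, 7932 bases from the nearest gene end. The pixel had 15 contacts (8.40 to 24.7), 4.59 times expected (2.57 to 7.57), and FDRs of 0.00353 to 0.0790. A parallel WT pixel of the same span, shifted by 15 kb at both anchors and thus 14527 bases from Mau2, had 20 contacts at 3.31 times expected (2.02 to 5.12). Its bins were those of the starts of Gatad2a and of Ndufa13, which encodes a subunit of mitochondrial complex I. The Ndufa13 bin also held both ends of Tssk6. The nearest DKO anchor was 392 kb from Mau2.

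Pds5b (chromosome 5, 150673713 to 150810669) encodes a regulator that both aids release of cohesin and stabilises it. The DKO contact ran from the bin of its start (150670001 to 150675000), across the whole gene, to a bin 695 kb downstream (151365001 to 151370000). The first bin also holds the start of the predicted gene Gm40353, so the contact cannot be assigned to Pds5b alone. The start of N4bp2l2 lay 4253 bases from that bin. The partner lies inside Stard13, 58200 bases from the nearest gene end. The pixel had 12 contacts (6.20 to 21.0) on an expected count of 1.05, an enrichment of 11.4 (5.89 to 19.9) that ranged from 6.97 to 16.1 over the neighbourhoods. Its enrichment exceeded that of 96.7% of DKO pixels, while 0.965% of DKO pixels had fewer contacts. The 12 contacts were the lowest count listed for its classes. Any pixel listed with these expected counts would thus be about as enriched or more, so the high rank does not mark a strong contact. The FDRs were 0.0157 to 0.0666. No WT anchor lay within 654 kb of Pds5b.

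**Figure D1:**
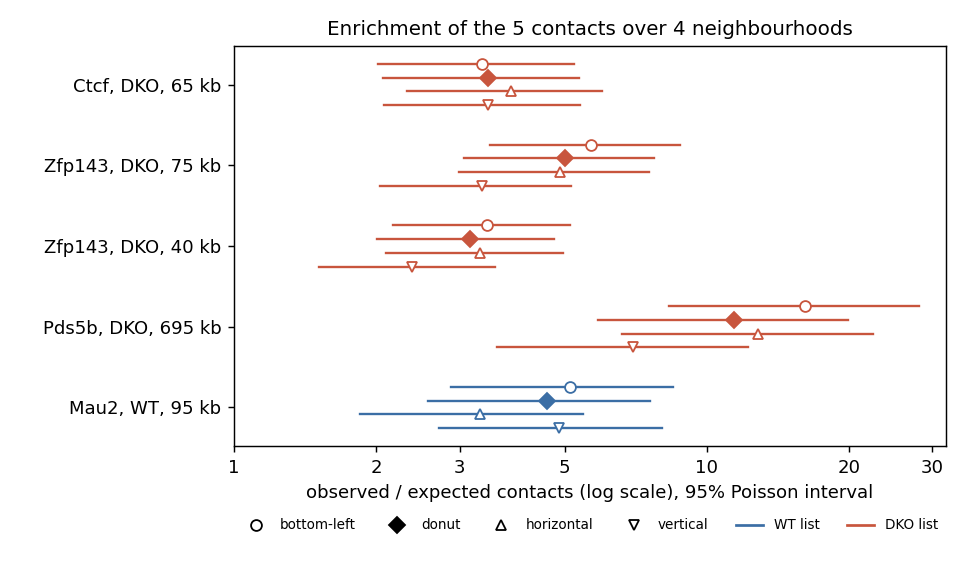
Observed over expected contacts (log axis) for each of the 5 contacts and each of the 4 neighbourhoods that gave an expected count, with bars for the exact 95% Poisson interval; labels give the gene, the list and the span. The Pds5b contact stands highest, at 11.4 over the donut, with the widest interval, and the shorter Zfp143 contact is lowest at 3.16.

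The median enrichment of the 4 DKO contacts was 4.22, against 4.95 for all DKO pixels (quartiles 4 and 6.23). The WT contact stood at 4.59, against a WT median of 5.11 (quartiles 4.15 and 6.37). The median span of the DKO contacts was 70.0 kb against 100 kb for all DKO pixels, and that of the WT contact was 95 kb against 115 kb. By span the 5 contacts ranged from 40 kb to 695 kb, and 98.9% of DKO pixels were shorter than that of Pds5b. All 4 DKO contacts stood alone, with no other DKO pixel within 20 kb at both anchors, as did 34.4% of all DKO pixels. The Mau2 contact had the parallel pixel beside it, and 29.2% of WT pixels stood alone.

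How close each contact was to not being listed can be read from the deposited classes of expected counts, since pixels of a class share a count limit. The Ctcf pixel had 2 contacts more than the lowest count that DKO pixels of its classes were listed with (17). The Zfp143 pixels had 3 and 1 more (limits of 17 and 22). The Pds5b and Mau2 pixels were at the lowest count itself, 12 and 15. The WT list had the same lowest counts as the DKO list for the classes of all 5 pixels. All 5 margins are smaller than the counting error of the pixels, whose intervals reach below the limit in each case. This closeness is usual: 70.8% of DKO pixels and 68.5% of WT pixels lay at most 3 contacts above the lowest count of their classes.

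**Figure D2:**
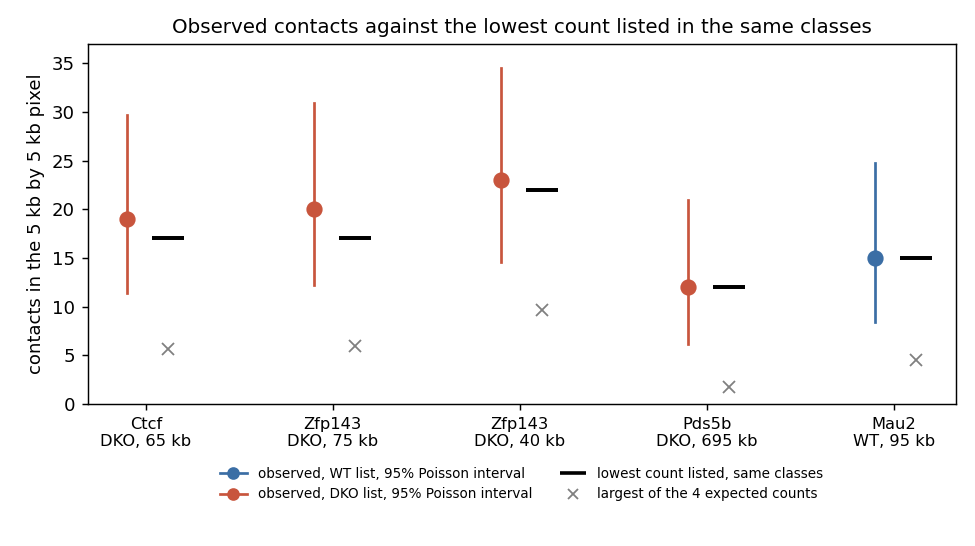
Contacts per 5 kb by 5 kb pixel for the 5 contacts: circles give the observed count with its exact 95% Poisson interval, black dashes beside them the lowest count listed with the same classes in the same list, and crosses the largest of the 4 expected counts. Every interval reaches below its dash, and the Pds5b and Mau2 circles are level with theirs, at 12 and 15.

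The 6 genes without a contact within 10 kb differed in how far they were from one. Nipbl (chromosome 15, 8289824 to 8465315), the main cohesin loading factor, fell just outside the window, with a DKO anchor 10315 bases from its upper end. Of the contacts counted within the window, the farthest from its gene end was the shorter Zfp143 one, at 1689 bases. At Nipbl both lists had a contact from bins inside the gene to a region beyond it. In WT it ran from 8445001 to 8585001 over 140 kb, with 16 contacts at 4.91 times expected (2.81 to 7.98). In DKO the same inner bin met 8565001 over 120 kb, with 18 contacts at 4.51 times expected (2.67 to 7.13). A neighbouring DKO pixel of the same span had 14 contacts at 4.94 (2.70 to 8.28). The near anchor was thus in common and the far anchors differed by 15 kb to 20 kb, beyond the 10 kb used for a match. An end of LOC102634078, which overlaps Nipbl, lay in the common bin, and the nearest gene end to the far bins was that of Slc1a3, a glutamate transporter, at 44124 to 64124 bases. A second WT contact joined a bin inside Nipbl (8330001) to 8130001 with 12 contacts at 5.95 (3.08 to 10.4), and DKO had none listed there. These 12 contacts were the lowest count listed for its classes in both lists, and its largest FDR was 0.0800.

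At 2 ring subunit genes the lists held matching contacts. At Smc3 (chromosome 19, 53600396 to 53645831), both lists had an anchor at 53580001 to 53585000, 15396 bases before the start of transcription. It met a bin 185 kb upstream in WT, with 14 contacts at 5.99 times expected (3.27 to 10.0), and 190 kb upstream in DKO, with 13 contacts at 6 (3.19 to 10.3). The far bins lie at the start of Smndc1, which encodes a splicing factor, inside the DKO bin and 4300 bases from the WT bin. The adjoining WT pixel, from 53575001, was stronger, with 23 contacts at 9.13 times expected (5.79 to 13.7) and a largest FDR of 7.14e-07. Rad21 (chromosome 15, 51962604 to 51993538), the subunit that closes the ring, was enclosed in both lists by a contact over 250 kb between the same bins (51910001 and 52160001). It had 17 contacts at 9.10 times expected (5.30 to 14.6) in WT and 13 at 6.96 (3.70 to 11.9) in DKO, and these intervals overlap. WT had a further pixel of 240 kb from the same bin, with 14 contacts at 8.70 (4.76 to 14.6). No annotated gene end lay within 5 kb of any of these Rad21 anchors, the nearer of which was 47.6 kb from the gene. Stag1 (chromosome 9, 100597709 to 100958544), at 360.8 kb the longest of the 10 genes, had no anchor inside it, and its nearest anchors were 1213 kb away in WT and 71.5 kb in DKO.

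Of the release factors, Wapl (chromosome 14, 34672379 to 34747983) was enclosed by 3 adjoining WT pixels with no DKO counterpart. They ran from 34610001 or 34615001 to 34770001 or 34775001, over 155 kb to 160 kb, and so held the whole gene. Their counts were 18, 22 and 19 contacts, at 6.57 (3.89 to 10.4), 7.11 (4.46 to 10.8) and 7.54 (4.54 to 11.8) times expected. The largest FDR of the 3 was 0.00499, and the pixel of 22 contacts had FDRs of at most 4.82e-05. The lowest counts DKO pixels of these classes were listed with were 14 and 15, which the WT counts exceeded by 3, 7 and 5. These classes come from the WT expected counts, since pixels not listed in DKO have no recorded value there. The exact Poisson intervals of all 3 counts reach below these limits. The margins therefore do not show that the contact was lost in DKO, and a loss was not tested. The nearest DKO pixel was offset by 215 kb, and no DKO anchor lay within 112 kb of Wapl, against 22 kb in WT. No gene end lay within 5 kb of these anchors. Pds5a (chromosome 5, 65605719 to 65698236), the relative of Pds5b, had no anchor inside it, and its nearest anchors were 736 kb away in WT and 26.8 kb in DKO.

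**Figure D3:**
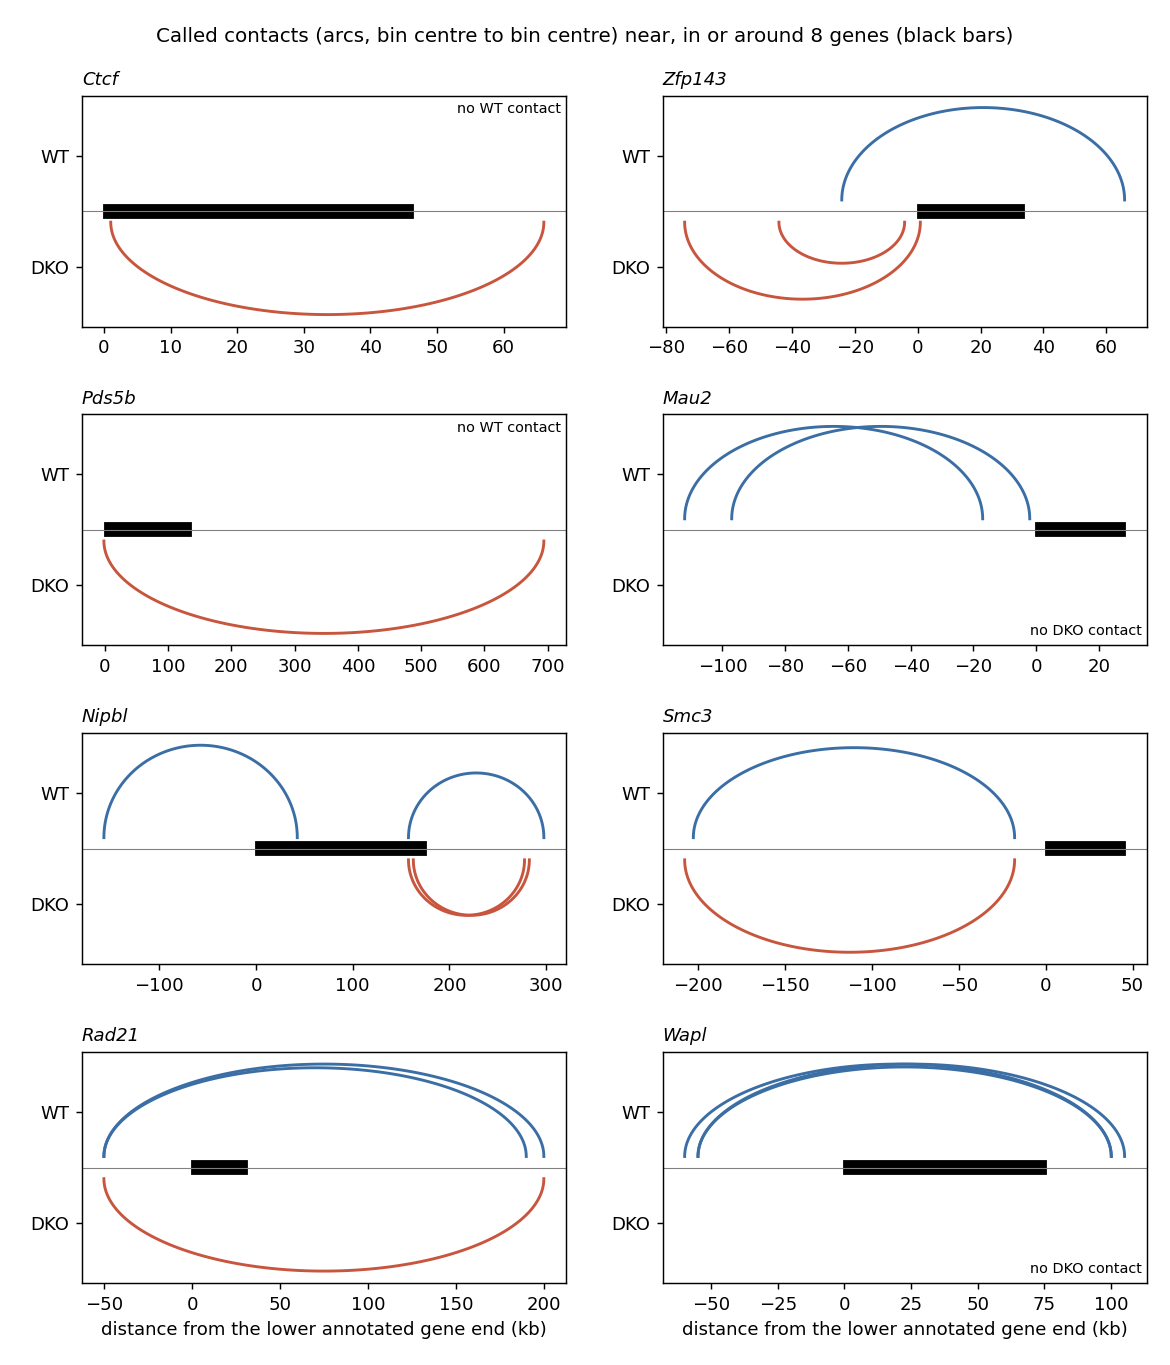
Contacts of the WT list (arcs above the line, blue) and DKO list (below, red) that have an anchor within 20 kb of either gene end or inside the gene, or that enclose the gene, for 8 of the 10 genes (black bars); the x axis is the distance in kb from the lower annotated gene end and differs between panels. Smc3, Rad21, Nipbl and Zfp143 have arcs on both sides, while Ctcf and Pds5b have arcs in DKO alone and Mau2 and Wapl in WT alone. A Rad21 arc joins the same bins in both lists. Arcs of Smc3 and Nipbl share an anchor bin between the lists but differ at the far bin, and those of Zfp143 share no bin.

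Over the 10 genes the nearest anchor was closer in DKO for 6, closer in WT for 2 and equally far for 2 (Rad21 and Smc3). Of all protein-coding genes, 35.0% had a closer anchor in DKO, 41.1% a closer one in WT and 23.9% an equally far one. The difference between 6 of 10 genes and the share of all genes was not tested. The median distance of the 10 genes was 24.5 kb to a WT anchor and 21.1 kb to a DKO anchor. All protein-coding genes had medians of 98 kb (quartiles 15 and 471) to WT anchors and 116 kb (quartiles 18 and 522) to DKO anchors. The 10 distances ranged from 0 to 1213 kb in WT and from 0 to 392 kb in DKO.

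**Figure D4:**
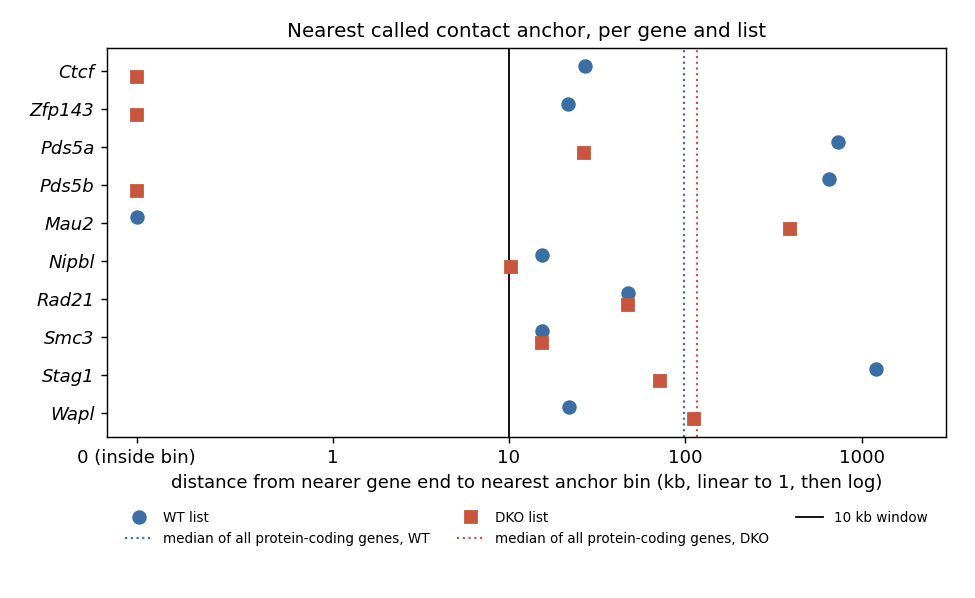
Distance in kb from the nearer gene end to the nearest anchor bin, per gene, in the WT list (blue circles) and DKO list (red squares), on an axis that is linear to 1 kb and logarithmic above; dotted lines give the medians over all protein-coding genes, 98 and 116 kb, and the black line the 10 kb window. Ctcf, Zfp143, Pds5b and Mau2 have an anchor at 0 in 1 list, and Nipbl lies just outside the window in DKO.

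A list of 34 other genes of cohesin, condensin and loop architecture gave a wider view of the machinery. Of these, 5 had contacts within 10 kb in both lists (14.7%, against 12.9% of all genes), 4 in WT alone (11.8% against 8.23%) and 4 in DKO alone (11.8% against 7.14%). With an FDR under 0.01 in all neighbourhoods, 1 was left in WT alone, Patz1 (2.94% against 4.87%). In DKO alone 1 was left, Top2b (2.94% against 3.54%). Ctcfl, the germline paralogue of Ctcf, had the most, 11 pixels in WT and 6 in DKO. In each list most of these pixels adjoined one another, so 11 and 6 do not count separate contacts. Both lists had pixels from 172995001 to 173090001 and around 173105001 to 173180001. The highest Ctcfl pixel ran from 173105001 to 173180001 on chromosome 2. It had 32 contacts in WT at 8.83 times expected (6.04 to 12.5) and 28 in DKO at 8.90 (5.92 to 12.9). Smc1b, the meiotic SMC1 gene, had 2 and 3 pixels, and the pixel common to the lists over 70 kb stood at 5.46 (3.33 to 8.43) in WT and 7.53 (4.92 to 11) in DKO. Adnp, a zinc-finger protein gene, had the same pixel over 90 kb in both lists, with 24 contacts at 4.63 (2.96 to 6.88) in WT and 28 at 5.89 (3.92 to 8.52) in DKO. The WT and DKO intervals overlap at each of these 3 pixels.

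Top2a, the topoisomerase of dividing cells, and Ncapd2, a condensin subunit gene, had pixels in both lists, but not the same ones. At Ncapd2 the WT pixel spanned 100 kb toward higher coordinates with 14 contacts, and the 2 DKO pixels spanned 70 kb toward lower ones with 15 contacts each. At Top2a the pixels of 19 contacts spanned 95 kb in WT, at 3.03 times expected (1.83 to 4.74), and 120 kb in DKO, at 3.51 (2.11 to 5.47). That DKO pixel did have a WT counterpart within 2 bins, whose anchors lay over 10 kb from Top2a. Maz, a zinc-finger gene linked to CTCF-bound sites, had 2 pixels in DKO alone, at 4.09 (2.24 to 6.87) and 6.41 (3.20 to 11.5). The condensin genes Ncapg, with 2 pixels at 5.08 (2.84 to 8.37) and 5.70 (3.38 to 9.01), and Ncapg2, with 1 at 5.29 (2.96 to 8.73), had theirs in WT alone. The other genes with contacts in a single list were Sgo2a and Patz1 in WT, and Yy1, Smc4 and Top2b in DKO, the last with 21 contacts at 5.59 (3.46 to 8.54). Smc1a and Stag2, which encode further subunits of the ring, had no contact within 10 kb in either list. Their nearest anchors were 3083 kb and 10583 kb away in WT, and 8346 kb and 3894 kb in DKO.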

How the data were processed

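Hi-C was run on 1 WT and 1 DKO library of sorted cells with the Arima kit, per the labels' protocols. The lists were written by juicer_tools 1.22.01, per the file headers, and Juicer and GRCm38 (mm10) are named in the submitters' processing notes. Read filters and sequencing depth were not stated. The authors deposited, per pixel, the raw observed contact count, 4 expected counts as a signal on that scale, a score numbering each expected count's class, and a q-value (FDR, all under 0.1) per neighbourhood. Listed counts sum to 113348 in WT and 95103 in DKO, over called pixels alone.

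Gene ends and promoter windows were RefSeq's, build GRCm38.p6, on chromosomes 1 to 19, X and Y, with 1-based coordinates. Enrichment is observed over donut expected count, and span the distance between bin starts. Partner genes have an end within 5 kb of the partner bin. Intervals are exact Poisson (expected counts taken as fixed) or, for shares, Clopper-Pearson. The lowest listed count is the largest, over the 4 neighbourhoods, of the smallest counts in the pixel's class. Distances were checked on planted pixels. Python 3.11.15, pandas 2.3.3 and SciPy 1.17.1 were used.

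Members and lists were chosen with earlier results of these data known. Named were all members, genes at their anchors, and up to 8 of the 34 other genes, first those with contacts in both lists, then those with most pixels, ties by name. Sgo2a, Patz1, Yy1, Smc4, Top2b, Smc1a and Stag2 were added once their values had been seen. The alternatives tried were an FDR under 0.01, other windows (inside the bin, 5 and 20 kb), at least 20 contacts, removal of lone pixels whose FDRs sum to over 0.02, counterparts at the identical pixel or up to 1 or 5 bins away, and other expected counts.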

Additional observations from a re-analysis of the deposited data

How the results depend on the processing

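No paired analysis was possible because there was only 1 library of each genotype, and for that reason no replicate could be left out. With an FDR under 0.01 in all neighbourhoods, members with a contact fell to 0 in WT and 1 in DKO, with 0 and 1 pixels, and the background shares to 10.8% and 9.51%. With at least 20 contacts they were 0 and 1 members, with 0 and 2 pixels, and shares of 10.6% and 9.48%. Under these settings the WT medians of enrichment and span could not be computed. Without weak pixels that stand alone, DKO kept 1 member with 1 pixel and the shares were 13.8% and 12.1%, while WT kept Mau2. So Ctcf and Pds5b lost their contacts under all of these settings, and the excess of DKO over WT members was gone under the last. With gene ends within 20 kb, 3 members in WT and 5 in DKO had contacts, with 4 and 7 pixels, of which 1 in each list was matched, at Smc3. The WT pixels with an FDR under 0.01 then rose to 1, the DKO median span to 120 kb and the shares to 28.1% and 26.1%. With gene ends within 5 kb the shares were 16.3% and 15.9%, and inside the bin 9.44% and 8.99%, with the same members. Inside the bin, Zfp143 kept 1 of its 2 DKO pixels. Other matching distances and other expected counts moved no summary beyond its interval or 1.5 times. Of the recomputed summaries over the genes, 62 stayed within those limits and 30 moved. Of the recomputed pixel counts of single genes, 104 stayed and 16 moved. Counts of 12 to 23 contacts per pixel limit every value.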
